A study of Mus musculus with 4 samples.

Results

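Melanocytes make pigment in membrane-bound organelles called melanosomes, and in the cochlea cells of this lineage form the intermediate layer of the stria vascularis, the epithelium that sets the ion composition of the endolymph. They descend from the neural crest and not from the otic epithelium that gives rise to supporting cells (SCs) and hair cells (HCs). Tyrosinase, encoded by *Tyr*, starts melanin synthesis, *Tyrp1* and *Dct* encode its relatives that act on later intermediates, *Mlana* and *Slc45a2* encode melanosome membrane proteins, *Mitf* encodes the transcription factor that drives these genes, and *Kit* encodes the receptor tyrosine kinase on which melanoblast migration and survival depend. These 7 genes were taken by their symbols from the 23997 genes of the table, and all 7 were found.

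The populations compared were Lgr5+ progenitors, EGFP+ cells sorted by flow cytometry from cochleae of Lgr5-EGFP-IRES-creERT2 mice, and Lgr6+ progenitors, sorted likewise from Lgr6-EGFP-IRES-CreERT2 mice. Both came from the C57BL/6 strain per the labels, a pigmented strain, at postnatal day 3, and in both lines EGFP is driven from the *Lgr* gene that names the population, so the sort takes any cell with an active reporter. Per the labels there were 2 libraries of each population, and per the methods the RNA of each was divided into 3 fractions as replicates, a number that differs from the labels, so that any spread would be technical. The values analysed here are 1 combined value for each gene and population, in FPKM (fragments mapped to a gene, scaled to its transcript length and to the size of the library), so no spread between libraries is known, no difference has a replicate check and no *p*-value was calculated.

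The SC list was well represented in both populations, with all 11 of its genes past an FPKM of 1 in 1 or both, and with *Sox2*, a transcription factor of SCs, at 139.6 FPKM in Lgr5+ and 54.8 FPKM in Lgr6+ progenitors. The interval given for *Sox2* in the table is wider than the gene and takes in *Sox2ot*, so its reads may be shared. Both genes that name the populations had their higher value in Lgr6+ progenitors. *Lgr5* stood at 9.65 FPKM in Lgr5+ and 25.0 FPKM in Lgr6+ progenitors, a ratio of 2.59. *Lgr6* had 2.06 and 2.90, a ratio of 1.41, which is under the 1.5-fold asked below of a difference. Low FPKM values lay on steps, as values made from whole fragments do, and the step was 3.20 times wider in Lgr5+ than in Lgr6+ progenitors, at 0.130 against 0.0406 in units of FPKM times kilobases. If a step is 1 fragment, low values in Lgr5+ progenitors rest on fewer fragments. The count of steps is therefore given beside the low values, as a range over the gene's annotated transcript lengths.

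The pigment genes were low or listed at 0 in both populations, and *Kit* was the exception. Only *Kit* and *Mitf* reached an FPKM of 1 in either population, the level asked of a gene before its difference was counted, so 2 of the 7 genes passed where 56.0% of all genes did. *Tyrp1* and *Mlana* were listed at 0 in both populations, as 31.6% of all genes were. *Kit* was higher in Lgr6+ progenitors and *Mitf* was higher in Lgr5+ progenitors, each by 1.5-fold or more in FPKM + 1. Calls of 1.5-fold for the gene lists below are also in FPKM + 1, so a low gene called within 1.5-fold can differ by more in FPKM. Of all 13436 genes that passed the level, 28.5% were that much higher in Lgr6+ and 23.3% in Lgr5+ progenitors, so a difference of this size was common in the table, and after scaling both populations to the same sum the share of counted genes that were higher in Lgr6+ progenitors went from 55.0% to 69.8%. The summed FPKM of the 7 genes was 7.44 in Lgr5+ and 16.2 in Lgr6+ progenitors. Without *Kit* the sums were 1.37 and 0.971, with the order of the populations turned.

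**Figure D1:**
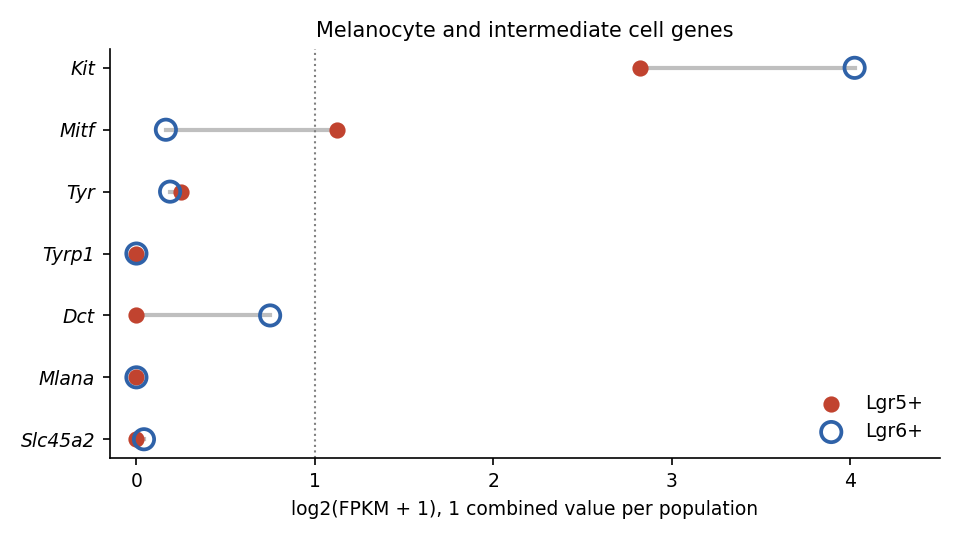
The horizontal axis gives log2(FPKM + 1) of each gene, with 1 combined value for Lgr5+ (filled red) and 1 for Lgr6+ progenitors (open blue) and no error bars, since values of single libraries were not used; the dotted line marks an FPKM of 1. *Kit* stands apart from the other genes, *Mitf* lies right of the line in Lgr5+ progenitors alone, and *Tyrp1* and *Mlana* lie at 0 in both.

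*Kit* lies on chromosome 5 from 75574987 to 75656721, in GRCm38 as all positions given here. Its level was 6.07 FPKM in the Lgr5+ and 15.3 FPKM in the Lgr6+ population, a ratio of 2.51 and a log2(FPKM + 1) difference of 1.20. At these levels *Kit* was above 66.3% of all genes in Lgr5+ and 78.8% in Lgr6+ progenitors, at rank 8089 and rank 5083. The values correspond to between 235 and 237 steps in Lgr5+ and between 1894 and 1904 in Lgr6+ progenitors, so *Kit* is the member whose values rest on the most fragments by this count. Under scaling to the same upper quartile, to the same sum and by quantiles, its difference ranged from 1.12 to 1.45, above 1.5-fold each time. *Kit* is also known from mast cells and blood progenitors. Of 9 mast cell genes, 7 were listed at 0 in both populations, where 31.6% of all genes were. Among the 7 were *Cpa3*, *Tpsb2*, *Ms4a2* and *Fcer1a*, which encode mast cell proteases and parts of the IgE receptor. The other two were *Cma1*, listed at 0 in Lgr5+ and at 0.18 FPKM in Lgr6+ progenitors, and *Hdc*, which makes histamine, with 2.53 and 0.298 FPKM.

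*Kit* sits in a cluster of related receptor genes, and its nearest neighbours were read after the *Kit* values had been seen. *Pdgfra*, the platelet-derived growth factor receptor on its left, had 10.5 FPKM in Lgr5+ and 15.9 FPKM in Lgr6+ progenitors. Its log2(FPKM + 1) difference was 0.56, under 1.5-fold in FPKM + 1, though its ratio of FPKM was 1.52. *Kdr*, the endothelial VEGF receptor on its right, was listed at 0 in the Lgr5+ and at 3.63 FPKM in the Lgr6+ population. Of the 5 class III receptor tyrosine kinases, *Kit* and *Csf1r* were higher by 1.5-fold or more in Lgr6+ progenitors, *Pdgfra* and *Pdgfrb* were within 1.5-fold, and *Flt3* had no FPKM of 1. *Csf1r*, the receptor that macrophages depend on, was listed at 0 in the Lgr5+ and at 1.29 FPKM in the Lgr6+ population. The 250 bases before the *Kit* start in RefSeq, chr5:75574737-75574986 of GRCm38.p6 on the plus strand, are shown as those of the member with the highest level. They are 70.8% G or C, and hold neither CATGTG nor CACGTG, the hexamers sought in all windows on both strands as forms of the E-box that Mitf is known to bind.

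*Kit*: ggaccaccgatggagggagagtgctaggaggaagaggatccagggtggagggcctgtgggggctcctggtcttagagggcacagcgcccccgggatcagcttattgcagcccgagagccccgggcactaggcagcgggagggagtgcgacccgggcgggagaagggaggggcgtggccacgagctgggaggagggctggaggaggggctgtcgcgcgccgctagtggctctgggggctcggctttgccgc

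*Mitf* lies on chromosome 6 from 97807058 to 98021358, an interval that also spans the pseudogene *Gm15531*. Its level was 1.18 FPKM in the Lgr5+ and 0.121 FPKM in the Lgr6+ population, a ratio of 9.70 toward Lgr5+ progenitors and a log2(FPKM + 1) difference of -0.96. The values correspond to between 13.3 and 42.6 steps in Lgr5+ and between 4.39 and 14.0 in Lgr6+ progenitors, over 8 annotated coding transcripts. *Mitf* was thus just above the level of 1 in Lgr5+ progenitors and well below it in Lgr6+ progenitors, and the call of 1.5-fold did not hold for a 2-fold threshold or where both populations had to reach an FPKM of 1. The direction was the same under each of the scalings, with differences from -1.23 to -0.93. The relatives of *Mitf* in the MiT family, which bind similar sites and govern lysosome genes, were at higher levels. *Tfe3* had 13.2 FPKM in Lgr5+ and 9.23 FPKM in Lgr6+ progenitors, and *Tfeb* had 9.59 and 6.06. *Tfec* was listed at 0 in both populations.

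The *Mitf* transcripts start at several places, and RefSeq gives 3 windows. The most downstream of them, where the melanocyte form of the transcript is known to begin, is shown because that form is the one that marks the lineage. Its 250 bases, chr6:97991533-97991782 on the plus strand, are 36% G or C and hold TGACGTCA, the cyclic AMP response element, printed in capitals, from base -153 before the start. This motif was added after the windows had been seen, and 1.79% of all 32851 windows of the same kind hold it. The combined FPKM does not separate the forms of the transcript.

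*Mitf*, downstream window: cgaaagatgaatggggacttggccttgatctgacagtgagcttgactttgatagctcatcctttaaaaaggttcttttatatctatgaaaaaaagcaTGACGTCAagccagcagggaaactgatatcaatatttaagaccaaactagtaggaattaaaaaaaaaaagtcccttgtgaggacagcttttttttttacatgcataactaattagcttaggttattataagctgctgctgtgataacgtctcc

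The tyrosinase family was near 0. *Tyr* spans 87427405 to 87493411 of chromosome 7 and stood at 0.19 FPKM in Lgr5+ and 0.14 FPKM in Lgr6+ progenitors, a log2(FPKM + 1) difference of -0.06. These values correspond to between 3.14 and 5.96 steps in Lgr5+ and between 7.41 and 14.1 in Lgr6+ progenitors. *Dct*, dopachrome tautomerase, spans 118012790 to 118052246 of chromosome 14 and is an early marker of melanoblasts. It was listed at 0 in the Lgr5+ and at 0.681 FPKM in the Lgr6+ population, which corresponds to between 28.3 and 34.9 steps. A single step for *Dct* in Lgr5+ progenitors would be an FPKM of 0.0624 over its longest transcript, which is under its Lgr6+ value. *Tyrp1* spans 80834213 to 80851736 of chromosome 4 and was listed at 0 in both. *Dct* and *Tyr* were thus read in Lgr6+ progenitors and *Tyr* alone in Lgr5+ progenitors, each below an FPKM of 1.

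The promoters of these 3 enzymes share a short element, known as the M-box, through which Mitf acts on them, and the stretches around it are shown for comparison. Promoter windows of 250 bases before and 50 after a start were at hand for 5 of the 7 genes, and those of *Mlana* and *Slc45a2* were not used here. The windows of *Dct*, *Tyr* and *Tyrp1* each held CATGTG, and each held the longer TCATGTG, while the windows of *Kit* and *Mitf* held neither and no member held CACGTG. Of all 32851 windows, 14.2% held CATGTG, 3.77% held TCATGTG and 7.15% held CACGTG on either strand, and every window with TCATGTG is also among those with CATGTG. The capitals mark TCATGTGCT, a longer form that contains both. It was held by 0.408% of all windows and was chosen after the windows had been seen. It begins 151 bases before the start of *Dct*, 22 before that of *Tyr* and 47 before that of *Tyrp1*, at chr14:118052379-118052407, chr7:87493516-87493544 and chr4:80834156-80834184 for the stretches printed, the first 2 on the minus strand. The *Tyrp1* stretch lies inside the RefSeq span of the gene, which begins upstream of the start used here. A match is a description of the letters, and no binding was measured.

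*Dct*: gcacttagggTCATGTGCTaacaaagagg
*Tyr*: aaaaagttagTCATGTGCTttgcagaaga
*Tyrp1*: ggggagggagTCATGTGCTgcctagtagt

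The *Dct* window holds TCATGTG a second time, on the other strand, where it reads CACATGA from base -232. Its 250 bases, chr14:118052247-118052496 on the minus strand, are printed whole with both matches in capitals, because *Dct* is the pigment enzyme gene with the highest value.

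*Dct*, whole window: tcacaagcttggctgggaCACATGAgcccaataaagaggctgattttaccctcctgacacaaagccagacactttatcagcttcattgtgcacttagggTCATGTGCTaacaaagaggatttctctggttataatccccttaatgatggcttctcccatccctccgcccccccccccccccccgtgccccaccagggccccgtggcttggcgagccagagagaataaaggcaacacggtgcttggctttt

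*Mlana* spans 29697941 to 29708306 of chromosome 19, encodes the melanosome protein Melan-A and was listed at 0 in both populations. Its single annotated coding transcript has 623 bases, so 1 step for it would be an FPKM of 0.293 in Lgr5+ and 0.0915 in Lgr6+ progenitors. *Slc45a2* spans 11000721 to 11029233 of chromosome 15, encodes a melanosome transporter and was listed at 0 in the Lgr5+ population. Its FPKM of 0.0297 in Lgr6+ progenitors corresponds to 2.05 steps. Of its relatives, *Slc45a1* and *Slc45a3* were also listed at 0 in Lgr5+ progenitors and stayed below 1 in Lgr6+ progenitors, at 0.017 and 0.507. *Slc45a4* alone was well above 1, at 18.4 in Lgr5+ and 9.20 in Lgr6+ progenitors.

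Further genes of the melanosome did not share a direction. Of 17 such genes, 9 reached an FPKM of 1, where 56.0% of all genes did. Over all genes that reached it, 28.5% were at least 1.5-fold higher in Lgr6+ and 23.3% in Lgr5+ progenitors. Of the 9, 3 were higher by 1.5-fold or more in Lgr6+ progenitors, 4 were that much higher in Lgr5+ progenitors and 2 were within 1.5-fold. The median log2(FPKM + 1) difference of the 9 was 0.43, against 0.03 over all genes that reached the level. The 3 higher in Lgr6+ progenitors were *Pmel*, *Bace2* and *Rab32*. *Pmel*, the protein of the melanosome's fibrils, had 0.318 FPKM in Lgr5+ and 3.03 FPKM in Lgr6+ progenitors, a log2(FPKM + 1) difference of 1.61. *Pmel* overlaps *Rab5b*, *Cdk2* and *Dgka* in RefSeq, and its interval in the table, from 128706258 to 128744056 on chromosome 10, runs past its own span, so its reads may be shared with them. *Bace2*, a protease that processes the Pmel protein, had 1.30 and 4.63. *Rab32*, a GTPase that brings enzymes to melanosomes and related organelles, was listed at 0 in the Lgr5+ and at 2.94 FPKM in the Lgr6+ population.

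The genes higher in Lgr5+ progenitors were *Cd63*, *Atp7a*, *Tpcn2* and *Rab27a*. *Cd63*, a tetraspanin of late endosomes in most cells, had 1016 FPKM in Lgr5+ and 579 FPKM in Lgr6+ progenitors and made up most of the summed FPKM of the list. *Atp7a*, a copper transporter, had 7.44 and 3.42. *Tpcn2*, a channel of endolysosomes, had 3.70 and 0.996. *Rab27a*, a GTPase that tethers melanosomes and other granules, had 2.68 and 1.06. Several of the genes most closely tied to pigment were below 1 in both populations. *Oca2*, *Slc24a5* and *Gpr143*, whose loss causes forms of albinism, were at most at 0.249, 0.465 and 0.684, each in FPKM in Lgr6+ progenitors, with *Slc24a5* overlapping *Myef2*, while *Trpm1* and *Mfsd12* were listed at 0 in both. *Rab38*, a relative of *Rab32*, was listed at 0 in the Lgr5+ and at 0.927 FPKM in the Lgr6+ population.

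**Figure D2:**
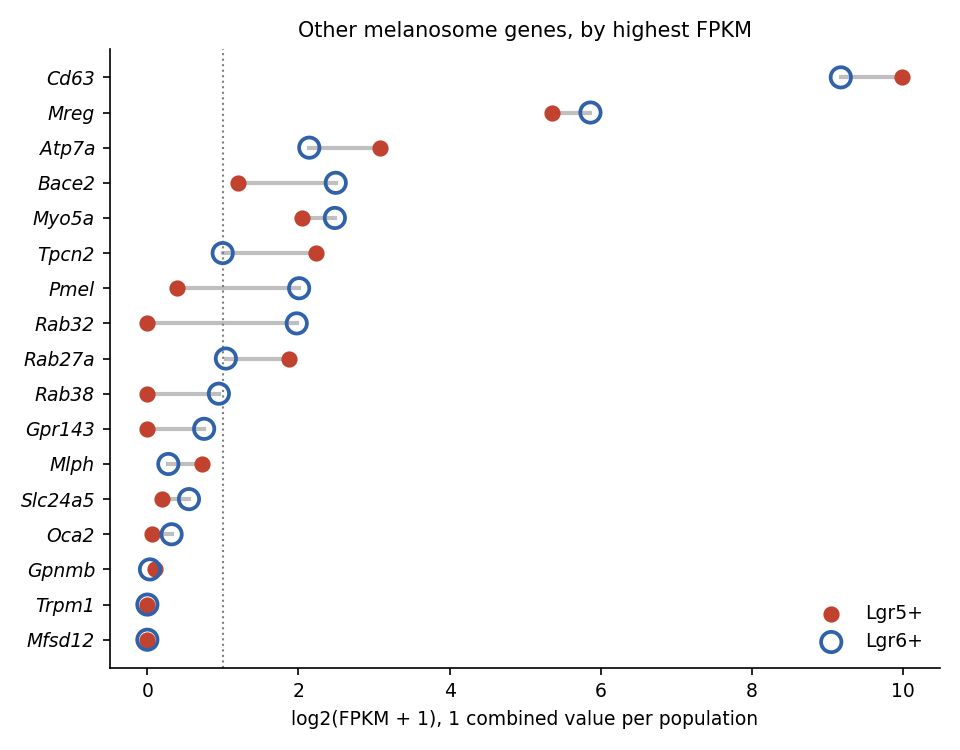
The horizontal axis gives log2(FPKM + 1) for 17 other melanosome genes, ordered by their highest FPKM, with 1 combined value for Lgr5+ (filled red) and 1 for Lgr6+ progenitors (open blue); the dotted line marks an FPKM of 1. *Cd63* and *Mreg* lie far to the right in both populations, and *Rab32*, *Pmel* and *Bace2* show the widest gaps toward Lgr6+ progenitors.

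The machinery that sorts cargo to melanosomes serves lysosome-related organelles of many cell types. All 18 genes of the BLOC complexes, the AP-3 adaptor and their partners reached an FPKM of 1 in 1 or both populations, and *Hps6* alone was below it in Lgr5+ progenitors, at 0.34. Over all genes that passed, 28.5% were at least 1.5-fold higher in Lgr6+ and 23.3% in Lgr5+ progenitors. Of the 18, 5 were higher by 1.5-fold or more in Lgr6+ progenitors, 2 were that much higher in Lgr5+ progenitors and 11 were within 1.5-fold in FPKM + 1. The median log2(FPKM + 1) difference of the 18 was 0.31. The BLOC-1 subunit gene *Bloc1s1* was the highest, at 526 in Lgr5+ and 461 in Lgr6+ progenitors. The widest differences toward Lgr5+ progenitors were those of *Bloc1s4*, with 21.5 and 4.16, and *Bloc1s3*, with 9.32 and 1.98. *Hps5*, a subunit gene of BLOC-2, had the widest difference toward Lgr6+ progenitors, from 6.69 to 19.4.

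Regulators of the melanoblast lineage were mixed. Of 13 genes, 7 reached an FPKM of 1, where 56.0% of all genes did. Over all genes that passed, 28.5% were at least 1.5-fold higher in Lgr6+ and 23.3% in Lgr5+ progenitors. Of the 7, 3 were higher by 1.5-fold or more in FPKM + 1 in Lgr6+ progenitors. Another 1 was that much higher in Lgr5+ progenitors and 3 were within 1.5-fold in FPKM + 1. *Sox10*, which marks neural crest cells and also otic epithelium, had 39.5 FPKM in Lgr5+ and 50.5 FPKM in Lgr6+ progenitors. *Ednrb*, the endothelin receptor of melanoblasts, had 12.1 and 31.1, a log2(FPKM + 1) difference of 1.29. *Lef1*, a Wnt effector, had 6.97 and 21.6. *Snai2*, a regulator of neural crest and mesenchyme, had 0.0709 and 4.77. *Sox5*, which restrains Sox10 in melanocytes, went the other way, with 14.2 and 4.65. *Pax3*, which with Sox10 activates *Mitf*, was listed at 0 in the Lgr5+ and at 0.0121 FPKM in the Lgr6+ population, and *Edn3*, the ligand of Ednrb, had 0.659 and 0.0436. The melanocortin receptor gene *Mc1r* had 1.01 in Lgr5+ and 0.61 in Lgr6+ progenitors. That is a ratio of FPKM of 1.66 toward Lgr5+ progenitors, but under 1.5-fold in FPKM + 1. The lineage's early factors *Tfap2a* and *Foxd3* stayed below 1 in both.

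Most signalling partners of *Kit* serve many receptors. The 14 genes of this list each reached an FPKM of 1 in 1 or both populations. Of these, 5 were higher by 1.5-fold or more in Lgr6+ progenitors, 1 was that much higher in Lgr5+ progenitors and 8 were within 1.5-fold in FPKM + 1. The median log2(FPKM + 1) difference of the 14 was 0.29. The shares over all genes that passed were 28.5% toward Lgr6+ and 23.3% toward Lgr5+ progenitors. *Kitl*, the Kit ligand, had 0.0451 FPKM in Lgr5+ and 1.5 FPKM in Lgr6+ progenitors. *Cbl*, the ubiquitin ligase that turns over active Kit, had 0.147 and 2.28, and the kinase gene *Fyn* had 5.46 and 11.7. *Sos1* and *Pik3r1*, links to Ras and to PI3 kinase, were the other two higher in Lgr6+ progenitors, with differences of 0.72 and 0.61. *Sh2b3*, an adaptor that damps Kit signalling, was the gene higher in Lgr5+ progenitors, with 4.36 and 0.973. The adaptor gene *Grb2* and the phosphatase genes *Ptpn11* and *Ptpn6* were between 13.4 and 22.9 in both populations and within 1.5-fold.

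**Figure D3:**
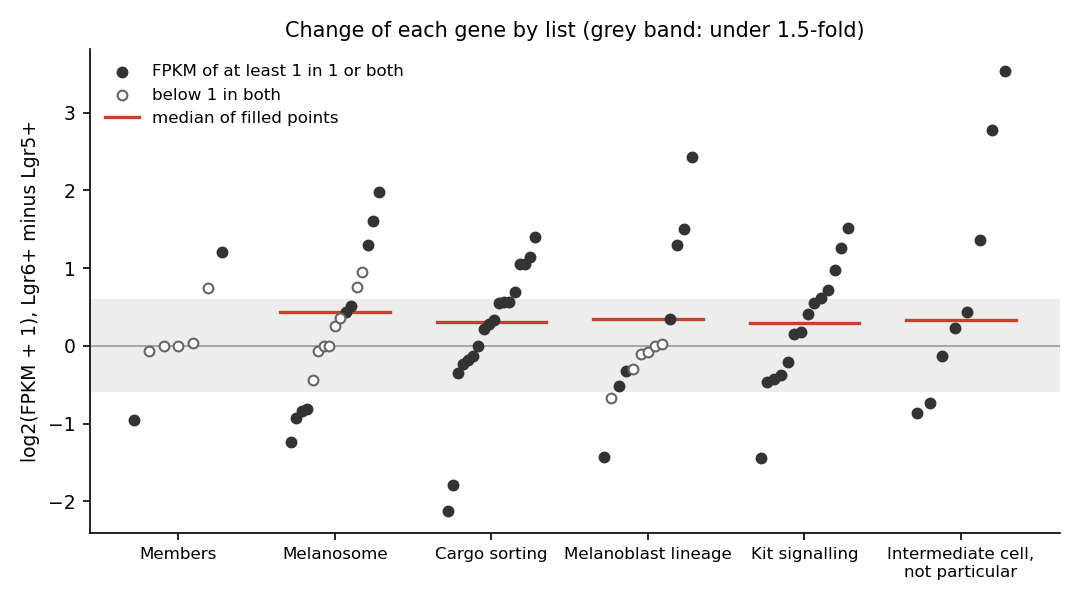
Each point is 1 gene, placed on the vertical axis by its log2(FPKM + 1) in Lgr6+ minus that in Lgr5+ progenitors and grouped by list; filled points reached an FPKM of 1 in 1 or both populations, open points did not, the red line is the median of the filled points and the grey band marks differences under 1.5-fold. The medians drawn, for the melanosome, cargo sorting, melanoblast lineage, Kit signalling and intermediate cell lists, lie inside the band, while single genes lie outside it on both sides.

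Genes that strial intermediate cells express but share with other cochlear cells were mixed. All 8 of them reached an FPKM of 1 in 1 or both populations, with 3 at least 1.5-fold higher in Lgr6+ progenitors, 2 that much higher in Lgr5+ progenitors and 3 within 1.5-fold. The shares over all genes that passed were 28.5% toward Lgr6+ and 23.3% toward Lgr5+ progenitors. *Kcnj10*, the potassium channel Kir4.1, which intermediate cells and SCs both use, had 2.83 FPKM in Lgr5+ and 2.50 FPKM in Lgr6+ progenitors. *Kcnj13*, a related channel, had 3.33 and 49.1, a log2(FPKM + 1) difference of 3.53. The *Kcnj13* gene lies within *Gigyf2* in RefSeq, and its interval in the table spans 123813 bases against 10153 for the gene itself, so its reads may be shared. *Nrp2*, a receptor for semaphorins, had 1.35 and 15.1, and *Gja1*, the gap junction protein connexin 43, had 0.442 and 2.70. *Met* and *Cd44* were higher in Lgr5+ progenitors, *Met* with 3.42 and 1.42 and *Cd44* with 16.2 and 9.37.

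Markers of other cell types that a cochlear sort can hold also differed between the populations. Of 10 macrophage genes, 7 reached an FPKM of 1 and all 7 were higher by 1.5-fold or more in Lgr6+ progenitors, where 28.5% of all genes that passed were. All 7 were below 1 in Lgr5+ progenitors and passed through their Lgr6+ values alone. The filter thus fixed the direction of these 7, and the share over all genes is not a like comparison. The summed FPKM of the list was 1.73 in Lgr5+ and 256 in Lgr6+ progenitors. In Lgr5+ progenitors 6 of the 10, *C1qb*, *C1qc*, *Tyrobp*, *Csf1r*, *Aif1* and *Ptprc*, were listed at 0, as were 9439 of all 23997 genes. *Ptprc* was near 0 in Lgr6+ progenitors too, at 0.00814 FPKM. *Cx3cr1* stayed below 1, with 0.215 in Lgr5+ and 0.681 in Lgr6+ progenitors, and *Itgam* went the other way, with 0.259 and 0.173. Of 7 genes of Schwann cells and glia, 4 reached the level and *Mbp* and *Pmp22* of myelin were higher in Lgr6+ progenitors by 1.5-fold or more, with sums over the list of 73.1 and 200.7. The HC list had 6 of 8 genes higher in Lgr6+ progenitors by 1.5-fold or more, with sums of 710 and 915. *Pvalb*, within 1.5-fold, was the highest of the 8, at 477 FPKM in Lgr5+ and 408 FPKM in Lgr6+ progenitors. By immunostaining, which reads protein, the paper reported no Myo7a in the sorted cells and Sox2 in nearly all of them. By q-PCR, which reads RNA, it reported more Sox2 and less of the HC marker Brn3.1 in each sorted population than in the cells without EGFP. Cells without EGFP are not among the values used here. The sums of the macrophage, Schwann cell and HC lists were ordered the same way as *Kit*, *Dct* and *Pmel* and the opposite way to *Mitf*. *Hdc* was ordered like *Mitf*, and the part of these lists and of *Hdc* in those differences was not tested. In sorted cells measured as a mixture, fewer cells of a type and less RNA per cell cannot be told apart. Without *Kit* the sum of the melanocyte genes was 0.971 in Lgr6+ progenitors. That was below the sums of the macrophage, Schwann cell and HC lists there, which hold more genes. It was above that of the mast cell list, at 0.478.

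**Figure D4:**
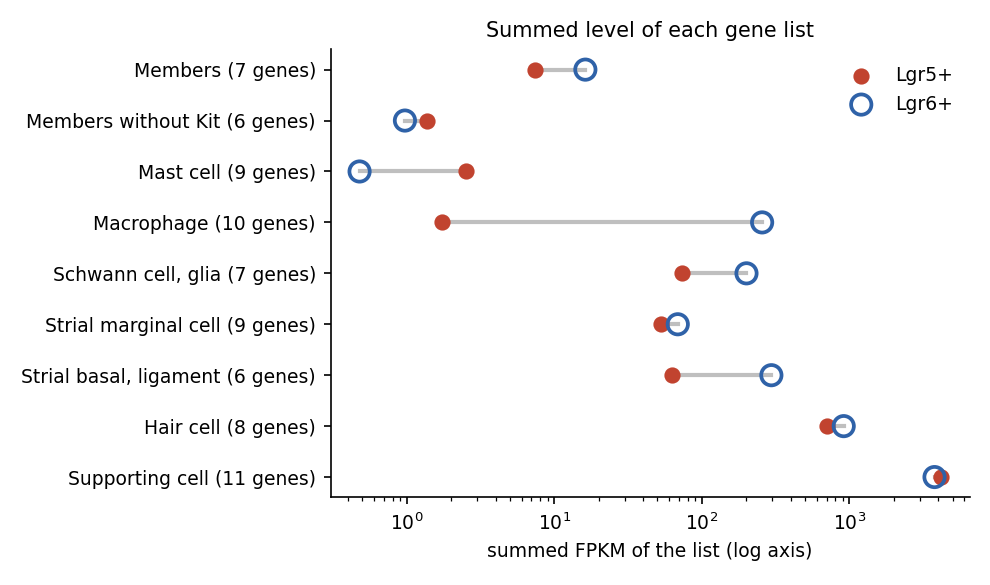
The horizontal log axis gives the summed FPKM of each gene list in Lgr5+ (filled red) and Lgr6+ progenitors (open blue), 1 combined value each and no error bars. The 6 melanocyte genes other than *Kit* lie near 1 in both populations, and the macrophage list shows the widest gap, from 1.73 to 256.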

How the data were processed

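The deposited table of RNA-Seq values for EGFP+ cells of P3 cochleae was used, with the 4 libraries of the labels grouped by population from their titles. Per the methods, the libraries were made with a low-input kit, Trimmomatic served for trimming, TopHat for mapping and Cufflinks for expression. The FPKM values that the authors deposited are scaled to transcript length and mapped fragments, with libraries combined. The paper names mm9 and the labels name mm10. Of 22500 symbols shared with RefSeq GRCm38.p6, 98.8% of the deposited intervals overlapped the gene, so positions are given as GRCm38, with 1 added to each deposited start, which counts from 0. Strand is not given in the sources used here. The columns that hold the authors' own comparison, a log2 fold change with *p* and *q*, were not used. The table holds neither counts nor the depth of each library, so no counting intervals are given.

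The log2 difference is log2(FPKM + 1) with the Lgr5+ value taken from the Lgr6+ value, and adding 1 makes differences of low genes look smaller. A gene was counted when its FPKM was at least 1 in at least 1 population and its FPKM + 1 differed by 1.5-fold. No test was possible with 1 value per population. Steps were found from genes with 1 coding transcript in GENCODE M1, after taking 180 bases off its length, a number chosen for the sharpest steps. The members and the 17 gene lists were chosen with earlier results of these data known, and 1 gene of the Schwann cell list is not reported here and was left out of its counts and sums. Every member was named, any gene of the lists could be named, by default the highest, the lowest and the widest difference of each, and neighbours of *Kit* were added after seeing their values. Promoter windows and overlapping genes came from RefSeq. Python 3.11.15, numpy 2.4.6, pandas 2.3.3 and matplotlib 3.10.9 were used, and the calculations were tested on simulated data. Alternatives were another pseudocount, 3 other filters, 3 scalings and a 2-fold threshold.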

Additional observations from a re-analysis of the deposited data

How the results depend on the processing

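No paired analysis was possible because the table holds 1 combined value per population, and for the same reason no library could be left out. *Kit* kept its direction and stayed past 1.5-fold under all 8 alternatives. *Mitf*, at -0.96, did not pass a 2-fold threshold, and it was filtered out with a minimum FPKM of 5 or with an FPKM of 1 asked of both populations, so under each of these 0 of the 7 genes were counted toward Lgr5+ progenitors. With no filter *Dct* was also counted, at 0.75, which makes 2 genes toward Lgr6+ progenitors. The median of the melanosome genes was 0.71 after scaling to the same sum, -0.81 with a minimum FPKM of 5 and -0.19 with an FPKM of 1 in both populations, so its direction rests on which genes are kept. That of the lineage genes was 0.35, with -0.08 with no filter, which turns its direction, 0.82 with a minimum FPKM of 5 and 0.60 after scaling to the same sum. The macrophage median was 5.27, with 8.06 for a pseudocount of 0.1 and 3.98 with no filter, and no macrophage gene had an FPKM of 1 in both populations. The Schwann cell median was 1.45, with 0.20 with no filter and 0.35 with an FPKM of 1 in both populations. Scaling to the same sum moved the median over all genes from 0.03 to 0.28 and the share of counted genes higher in Lgr6+ progenitors from 55.0% to 69.8%. The members' promoter matches were the same when only bases before the start were searched. The step sizes, the added motifs and the lists without *Kit* were chosen after seeing the data.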

Other observations

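Strial marginal cell genes differed widely in level. Of 9 genes of marginal cells, 4 reached an FPKM of 1 in at least 1 population, where 56.0% of all genes did. Of the 4, *Kcnq1* and *Lrp2* were higher by 1.5-fold or more in FPKM + 1 in Lgr6+ progenitors. The other 2 were within 1.5-fold, and 0 were that much higher in Lgr5+ progenitors. The shares over all genes that passed were 28.5% toward Lgr6+ and 23.3% toward Lgr5+ progenitors. The defining subunit genes *Kcne1*, of the apical potassium channel, and *Bsnd*, of the basolateral chloride channel, were listed at 0 in both, as 31.6% of all genes were. *Kcnq1*, the partner of *Kcne1*, was listed at 0 in the Lgr5+ and at 4.83 FPKM in the Lgr6+ population, and its span holds the antisense gene *Kcnq1ot1*. *Slc12a2* and *Atp1b2*, an ion cotransporter and a sodium pump subunit with wider expression, had 17 and 34.2 in Lgr5+ and 24.0 and 37.4 in Lgr6+ progenitors.

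All 6 genes of strial basal cells, spiral ligament and outer sulcus reached an FPKM of 1 in both populations. Among them *Otos*, the fibrocyte protein otospiralin, had 5.60 FPKM in Lgr5+ and 248 FPKM in Lgr6+ progenitors. The summed FPKM of the other 5 genes was 57.3 in Lgr5+ and 47.5 in Lgr6+ progenitors. *Cldn11*, the claudin of basal cell tight junctions, had 1.38 and 1.47.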
